A study of Mus musculus with 6 samples.

Results

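The genes described here belong to the complement system: C4a and C4b, the mouse genes for component C4, Cfhr2, a gene of a secreted complement control protein, and Serping1, which encodes the C1 inhibitor. They were taken by symbol from the deposited table of 13582 gene rows. Of 5 symbols named, 4 had a row, and C3 matched none and was not analysed here. C4a, C4b and Cfhr2 were chosen by their lower FPKM after resveratrol in these same libraries, so their differences are given as a description with no test. Serping1 was not chosen for a fall and keeps its place in the test. The study concerns lasting tolerance to ischemia after preconditioning with the plant polyphenol resveratrol. C57BL/6 mice received a single intraperitoneal injection of vehicle (3 mice) or of resveratrol at 10 mg/kg (3 mice), and RNA was taken from their right cortex 2 weeks later, at an age of 10 weeks. A dose of 10 mg/kg is also written for the vehicle mice, whose group was taken from the treatment they are labelled with. No ischemia is named in the labels, and all 6 mice share strain, age and route.

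Complement is a cascade of secreted proteins that marks targets for removal. In its classical branch C1q binds the target, the proteases C1r and C1s cleave C4, and the C4 fragment that attaches to the surface helps to form the enzyme that cleaves C3. The C1 inhibitor blocks C1r and C1s, while other secreted proteins act on C3 fragments. In the developing and the diseased mouse brain C1q, C4 and C3 are known for tagging synapses that microglia then remove, and C4 transcripts are found in glia, astrocytes among them. C4b is the mouse gene for the working C4 protein, and C4a is its neighbour on the same chromosome, also called Slp, whose protein is known not to be cleaved by C1s.

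In GRCm38, C4b lies on chromosome 17 from 34728380 to 34743882 and C4a from 34809092 to 34823464, both on the minus strand. GENCODE M21 lists C4b as protein coding and C4a as a processed transcript, and RefSeq lists C4a as a transcribed pseudogene. The longest transcripts are 5379 bases for C4b and 5371 for C4a, each in 41 exons, and 5160 of 5367 aligned bases (96.1%) were the same. The differing bases were spread unevenly, with 14 in the first 1200 bases and 193 in the rest. Of all words of 50 bases in each gene's transcripts, 34.6% of those of C4b occur in C4a and 30.6% of those of C4a occur in C4b. How the authors' counting shared out such reads is not given in the sources used here, so each C4 value on its own is uncertain. The stretches printed next show where a read can and cannot tell the genes apart, and all are exon sequence from GENCODE M21. The first pair is exon 18 around the longest gap in the alignment, where 9 bases of C4b have no partner in C4a (C4b at chr17:34736275-34736354, C4a at chr17:34816931-34817001, minus strand). Capitals mark bases that differ or have no partner.
C4b: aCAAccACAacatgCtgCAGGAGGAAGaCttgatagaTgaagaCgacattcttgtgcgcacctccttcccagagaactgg
C4a: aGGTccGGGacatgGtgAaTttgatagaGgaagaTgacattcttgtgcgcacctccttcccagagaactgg
The second pair, from exon 21, is the stretch of 80 coding bases with the most differing bases, 13, among stretches aligned without a gap (C4b at chr17:34735430-34735509, C4a at chr17:34816086-34816165, minus strand), with the differing bases in capitals.
C4b: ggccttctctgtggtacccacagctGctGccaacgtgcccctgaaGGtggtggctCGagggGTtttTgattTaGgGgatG
C4a: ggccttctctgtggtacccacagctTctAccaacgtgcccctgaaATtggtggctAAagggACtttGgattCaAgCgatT
The last stretch comes from exon 6 (C4b at chr17:34741991-34742070, C4a at chr17:34821569-34821648, minus strand) and lies in an identical run of 433 bases, so a fragment from it carries no base that names its gene.
C4b and C4a: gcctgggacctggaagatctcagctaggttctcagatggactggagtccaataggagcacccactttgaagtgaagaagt

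**Figure D1:**
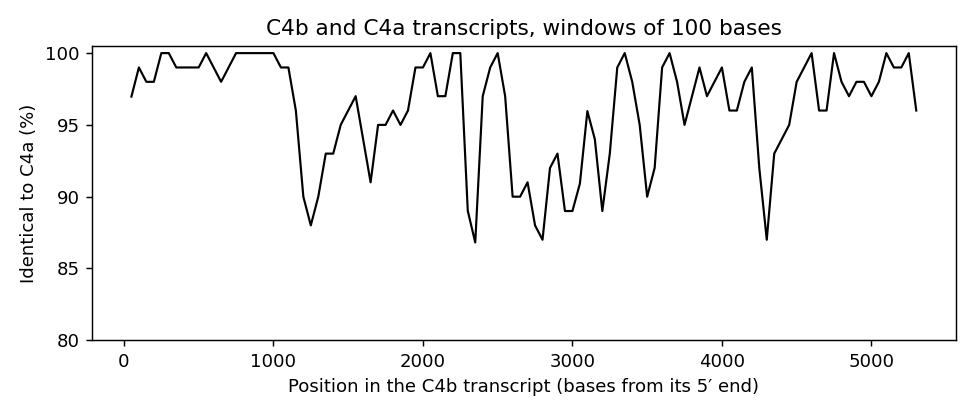
Percent of bases identical between the C4b and C4a transcripts (y axis, shown from 80%) in windows of 100 bases along the C4b transcript (x axis, bases from its 5′ end). Most differences lie after base 1200, with 193 there and 14 before it.

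Cfhr2 lies on chromosome 1 from 139804167 to 139858702 on the minus strand. Of its words of 50 bases, 29.2% occur in other genes, so its level is uncertain as well. Serping1, on chromosome 2 from 84765387 to 84775444, shares 0% of its words with other genes.

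The libraries differ from each other beyond the treatment, and the part of this in the values of the C4 genes was not tested. Levels are in FPKM, which scales fragments to transcript length and library size, and the depth per library is unknown, since no step of whole fragments could be found among low values. The first principal component, with 43.2% of the variance, set vehicle 1 (-16.4) and vehicle 2 (-25.8) apart from the other 4 libraries (1.41 to 18.8). Longer transcripts read higher in these libraries: over genes, Spearman's rho between transcript length and the deviation from the gene's mean was 0.31 for vehicle 1 and 0.474 for vehicle 2, against -0.502 to 0.00286 for the others. The log2 differences of C4a, C4b and Cfhr2 are therefore given with and without them.

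C4b, the component that C1s cleaves, had 3.32 FPKM in vehicle 1, 3.62 in vehicle 2 and 1.66 in vehicle 3, and 1.4, 1.83 and 2.46 FPKM for resveratrol 1, 2 and 3. Vehicle 1 and vehicle 2 were the highest libraries, while vehicle 3 lay below resveratrol 2 and resveratrol 3, so the groups overlapped. The means were 2.87 ± 1.06 FPKM in the vehicle group and 1.9 ± 0.535 FPKM after resveratrol (SD over 3 mice each), and the resveratrol mean was 66.2% of the vehicle mean. On the scale of log2(FPKM + 0.5), which understates the change of low genes, the difference of resveratrol minus vehicle was -0.46 ± 0.26 (SE). Without vehicle 1 and vehicle 2, an alternative added once the data had been seen, it turned to 0.13 ± 0.27, where vehicle 3 stands alone and is assumed to vary like the others. It was -0.34 ± 0.29 without vehicle 1, -0.29 ± 0.27 without vehicle 2 and -0.30 ± 0.29 without resveratrol 1. Without vehicle 3 it was -0.75 ± 0.20. The overlap rested on vehicle 3 alone and so ended with its removal, from which nothing is read in a gene chosen for its fall.

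C4a had the lowest mean of the 4 genes in each group. It had 1.24, 1.06 and 0.561 FPKM for vehicle 1, 2 and 3 and 0.204, 0.459 and 0.698 FPKM for resveratrol 1, 2 and 3. As for C4b, vehicle 1 and vehicle 2 were highest and resveratrol 1 lowest, and vehicle 3 lay below resveratrol 3. The means were 0.955 ± 0.352 FPKM in the vehicle group and 0.454 ± 0.247 FPKM after resveratrol (SD over 3 mice each), 47.5% of vehicle, with a log2 difference of -0.61 ± 0.26 (SE). It was -0.98 with a pseudocount of 0.1 in place of 0.5, and -0.19 ± 0.33 without vehicle 1 and vehicle 2. The overlap was that of vehicle 3 with resveratrol 3 alone, so it ended when either was left out. Nothing is read from this, since C4a was chosen for its fall. C4a entered the fit at a mean of 0.704 FPKM over all libraries against a minimum of 0.5, which its resveratrol libraries alone would not have reached.

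Because reads can pass between these rows, the C4 genes were also read together. The FPKM of C4a and C4b added up to 4.56, 4.68 and 2.22 for vehicle 1, 2 and 3 and to 1.6, 2.29 and 3.16 for resveratrol 1, 2 and 3. The sum thus keeps the order of the libraries seen in C4b, with means of 3.82 ± 1.39 for vehicle and 2.35 ± 0.781 for resveratrol (SD over 3 mice each). Without vehicle 1 and vehicle 2 the direction turns, since vehicle 3 alone, at 2.22, lies below the resveratrol mean. C4a made up 27.2%, 22.7% and 25.3% of the sum for vehicle 1, 2 and 3 and 12.7%, 20% and 22.1% for resveratrol 1, 2 and 3. The share was lower in every resveratrol library than in every vehicle library, by a narrow margin between vehicle 2 and resveratrol 3, and it was lowest in resveratrol 1, where C4a itself was lowest. Since both rows were chosen for their fall in the same libraries, no test is given for the share. Over the 6 libraries the log2 values of C4a and C4b had a Pearson r of 0.945, in rows that share sequence, and vehicle 1 and vehicle 2 are the highest libraries of both.

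**Figure D2:**
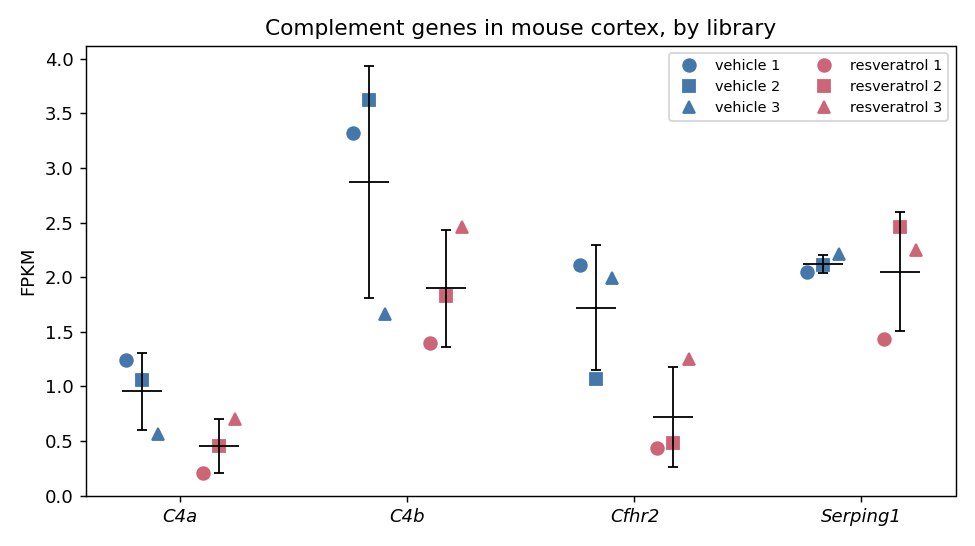
FPKM (y axis) of C4a, C4b, Cfhr2 and Serping1 (x axis) in the 3 vehicle libraries (blue) and the 3 resveratrol libraries (red), with marker shapes for libraries 1, 2 and 3 and black lines for the mean and SD. For C4a, C4b and Cfhr2 at least 1 vehicle library lies below the highest resveratrol library, and Serping1 means are 2.12 and 2.05.

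**Figure D3:**
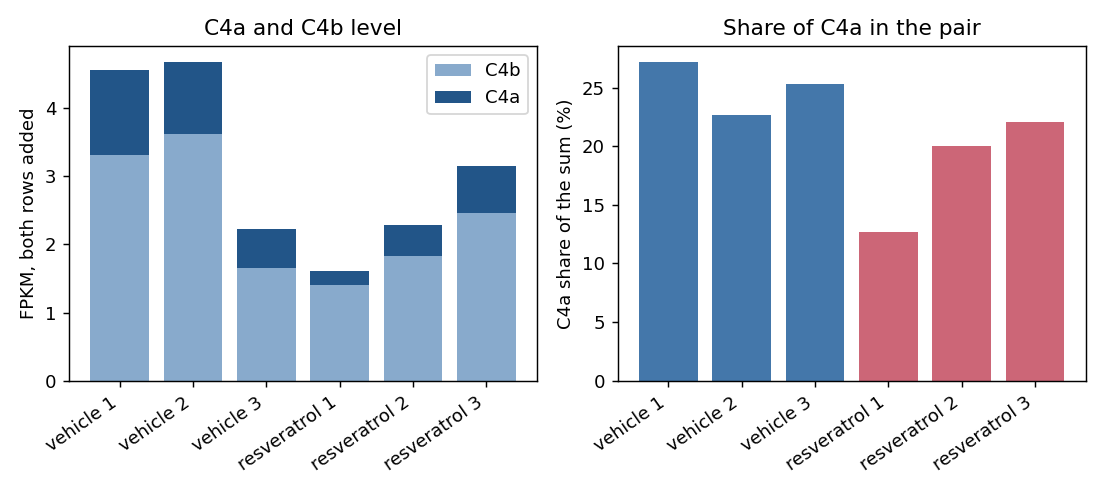
Left, FPKM of C4b (light) and C4a (dark) stacked for each library, and right, C4a as percent of the sum of both, with vehicle in blue and resveratrol in red. The sum is highest in vehicle 1 and vehicle 2 (4.56 and 4.68), and the share of C4a is lowest in resveratrol 1 (12.7%).

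Markers of astrocytes, cells that express C4 in the mouse brain, were set beside the C4 genes. All 8 markers named had a row, 3 higher and 5 lower in resveratrol, and none was under 0.1 FPKM in any library. Their summed level was 1024, 1079 and 807 FPKM in vehicle 1, 2 and 3, and 855 to 880 FPKM in resveratrol. Vehicle 1 and vehicle 2 had the highest sums and vehicle 3 the lowest. Slc1a2, the main glutamate transporter of astrocytes, was the most abundant of the 8 on average and had the same extremes. It had 493, 584 and 270 FPKM for vehicle 1, 2 and 3 and 294 to 358 FPKM in resveratrol. The astrocyte aldolase Aldoc had 217, 209 and 266 FPKM and 239 to 281 FPKM, with vehicle 1 and vehicle 2 its lowest libraries. The order of the sum was thus not shared by all markers. The part of these shifts, and of the trend with transcript length, in the C4 values was not tested. In bulk tissue fewer cells of a type and less RNA per cell cannot be told apart. With a correction of each library for transcript length and GC content, chosen after seeing the data, the log2 differences were -0.47 ± 0.22 for C4b and -0.62 ± 0.23 for C4a.

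Cfhr2 encodes a secreted protein built of short complement control repeats, and in mice it is known mainly as a product of the liver. It had 2.11, 1.07 and 1.99 FPKM for vehicle 1, 2 and 3 and 0.432, 0.479 and 1.25 FPKM for resveratrol 1, 2 and 3. Vehicle 1 and vehicle 3 were highest, resveratrol 1 and resveratrol 2 lowest, and the groups overlapped through vehicle 2 and resveratrol 3. The means were 1.72 ± 0.57 FPKM in the vehicle group and 0.72 ± 0.458 FPKM after resveratrol (SD over 3 mice each), 41.8% of vehicle, with a log2 difference of -0.89 ± 0.28 (SE). Unlike the C4 values, this difference was -1.09 ± 0.36 without vehicle 1 and vehicle 2. It ranged from -1.18 to -0.73 as each library was left out. The overlap ended when vehicle 2 or resveratrol 3, the libraries that made it, was left out. Nothing is read from this, since Cfhr2 was chosen for its fall.

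Of 6 liver markers, only Apoa2 had a row, at 0.397 to 0.982 FPKM in the vehicle group and 0.689 to 2.05 FPKM after resveratrol, and the others were not analysed here. Markers of ependymal cells, which line the ventricles, were lower in resveratrol in 5 of 5 genes, of which 0 passed in limma. At an unadjusted p under 0.05 there were 3, where 0.788% of all genes were lower. Their summed level was 12.6, 13.3 and 12.2 FPKM for vehicle 1, 2 and 3 and 9.34, 8.12 and 8.96 FPKM for resveratrol 1, 2 and 3. Every vehicle sum lay above every resveratrol sum. In 3 of the 5 genes the groups did not overlap, lower in resveratrol, against 2% of all genes. Within their groups, vehicle 2 and resveratrol 1 had the highest sum and the lowest Cfhr2 value. The part of this level in the Cfhr2 values was not tested.

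Serping1, whose product inactivates C1r and C1s, had 2.05, 2.11 and 2.21 FPKM for vehicle 1, 2 and 3 and 1.43, 2.46 and 2.25 FPKM for resveratrol 1, 2 and 3. The vehicle libraries lay close together, and resveratrol 1 alone was below them. The means were 2.12 ± 0.0788 and 2.05 ± 0.546 FPKM (SD over 3 mice each), with a log2 difference of -0.07 ± 0.18 (SE) and a 95% interval of -0.47 to 0.34 (limma adjusted p = 0.987). Without resveratrol 1 the difference was 0.12 ± 0.15 and both remaining resveratrol libraries lay above the vehicle libraries. The interval does not show that Serping1 stayed the same, and it covers the difference measured for C4b.

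FPKM is per length, but an order of the genes by level is limited by the sequence that C4a, C4b and Cfhr2 share with other genes and by the trend with transcript length. In vehicle the order of the means was C4b, Serping1, Cfhr2 and C4a, and each gene's range overlapped that of its neighbour in the order. In resveratrol it was Serping1, C4b, Cfhr2 and C4a. There the lowest C4b library (1.4 FPKM) lay above the highest Cfhr2 library (1.25 FPKM), and the other neighbours overlapped.

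The fit over all genes used limma on log2(FPKM + 0.5), with Benjamini-Hochberg adjustment over 13574 genes and a threshold of 0.05. In it 0 of the 4 genes passed, where 1 gene in all did (0.00737% of those tested). At an unadjusted p under 0.05 it held 2 of the 4, against 2.42% of all genes in either direction and 0.788% lower, a count that the choice of genes for their fall largely sets. For 0 of the 4 did the groups not overlap, against 6.28% of all genes (2% lower and 4.28% higher). In the authors' deposited table the log2 fold changes were -1.07 for C4a (q = 0.0115), -1.26 for Cfhr2 (q = 0.0471), -0.60 for C4b (q = 0.0736) and -0.05 for Serping1. At a q under 0.05 the authors' deposited table thus held 2 of the 4 as lower, where 0.633% of all its genes were lower and 0.744% differed in either direction. Nothing is read from these counts, since the same contrast chose the genes.

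The other genes of the pathway were taken from lists by role. Of 59 symbols, 23 had a row, and the rest were not analysed here. None of the 23 passed in limma (0 also at an unadjusted p under 0.05), with 15 higher and 8 lower and a median log2 difference of 0.04, beside 43.9% lower and a median of 0.02 over all genes. The differences ran from -0.42 to 0.41, and the groups overlapped in all 23, where 6.28% of all genes had groups that did not overlap.

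Upstream of C4, the chains of C1q, made by microglia, were well above the C4 genes. C1qa had 35.3, 29.8 and 34.6 FPKM in the vehicle group and 33.4, 33.1 and 45.4 FPKM after resveratrol, a log2 difference of 0.15 ± 0.14 (SE). C1qb and C1qc differed by 0.08 ± 0.16 and 0.19 ± 0.14, and all C1q groups overlapped. C1ra, a gene of the protease C1r, had 1.82 ± 0.298 FPKM in the vehicle group and 1.48 ± 0.402 FPKM after resveratrol (SD over 3 mice each; -0.24 ± 0.19 SE). Of the lectin branch, the protease gene Masp1 differed by 0.06 ± 0.17 and the collectin gene Colec12 by 0.07 ± 0.14. Cfp, which encodes properdin, the stabiliser of the alternative branch, differed by 0.22 ± 0.19. C8g, a chain of the terminal complex, had 0.135, 0.714 and 0.378 FPKM in the vehicle group and 0.779, 0.733 and 0.515 FPKM after resveratrol (0.41 ± 0.25).

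Among regulators on the cell surface, 4 of 8 were higher and 4 lower. Cd59a, which blocks the terminal complex, had 4.59, 2.98 and 2.45 FPKM in the vehicle group and 2, 2.58 and 2.36 FPKM after resveratrol. Vehicle 1 stood above the other libraries, and the log2 difference was -0.42 ± 0.20 (SE; limma adjusted p = 0.987). Cd55 and Cr1l, which break down the enzymes that cleave C3 or help to degrade C3 and C4 fragments, differed by 0.04 ± 0.17 and -0.05 ± 0.12. Csmd1, Csmd2 and Csmd3, large neuronal membrane proteins with complement control repeats, differed by 0.07 ± 0.17, -0.05 ± 0.18 and -0.16 ± 0.14, and Susd4 by 0.06 ± 0.11. In the fluid phase clusterin (Clu), an inhibitor of the terminal complex, had 322 ± 14 and 331 ± 42.5 FPKM (SD over 3 mice each), and vitronectin (Vtn) 32.5 ± 3.93 and 32.8 ± 3.71 FPKM.

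Of the receptors, 2 of 5 were higher and 3 lower. C3ar1, the receptor of the C3a fragment, had 0.769 ± 0.121 FPKM in the vehicle group and 0.707 ± 0.0919 FPKM after resveratrol (SD over 3 mice each; -0.07 ± 0.17 SE). Itgam and Itgb2, which together form the microglial receptor for cleaved C3, differed by 0.14 ± 0.13 and -0.13 ± 0.22. Microglia markers summed to 156 to 164 FPKM in the vehicle group and 153 to 161 FPKM after resveratrol, with 2 of 9 higher and 7 lower.

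**Figure D4:**
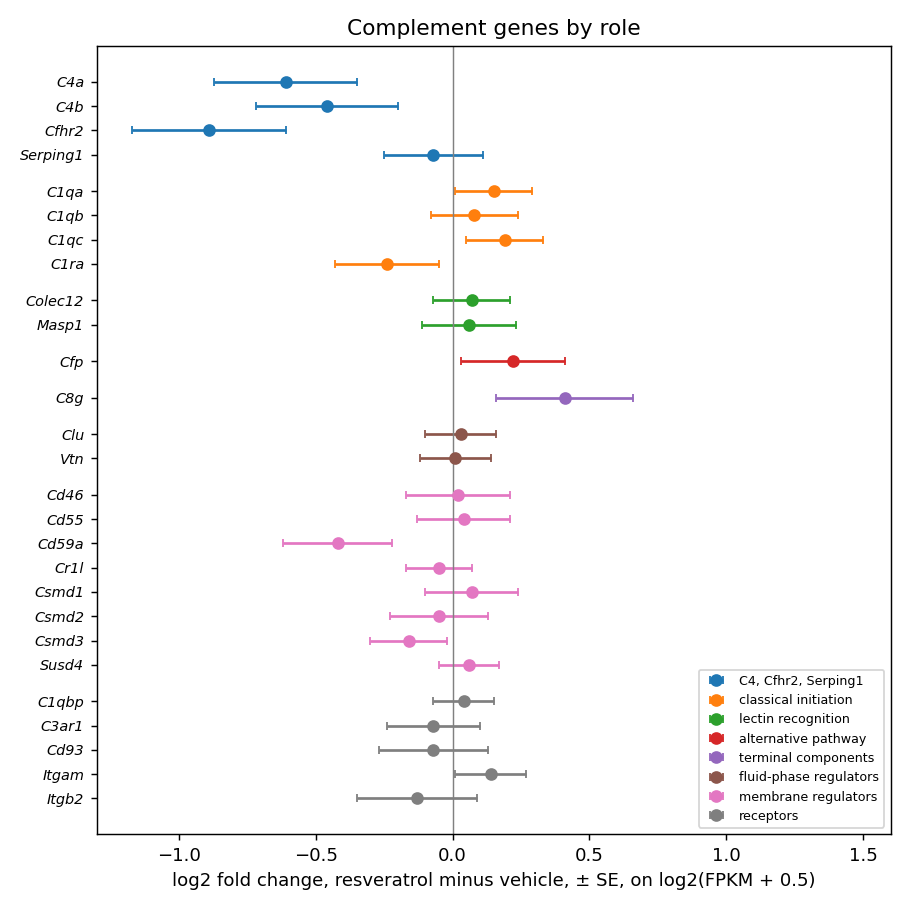
Log2 difference of resveratrol minus vehicle on log2(FPKM + 0.5) (x axis) with its SE for C4a, C4b, Cfhr2, Serping1 and 23 other complement genes (y axis), coloured by role. C4a, C4b and Cfhr2 were chosen for their fall (-0.61, -0.46 and -0.89), and the others run from -0.42 to 0.41.

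Genes near C4 on the chromosome were measured as well. Of 13 symbols of that neighbourhood 7 had a row, 5 higher and 2 lower in resveratrol, with differences from -0.15 to 0.23. Stk19, a gene of the C4 neighbourhood, had 11.5 ± 1.74 and 11.3 ± 0.854 FPKM (SD over 3 mice each; -0.02 ± 0.13 SE). Nelfe, a subunit of a factor that pauses RNA polymerase, was lower without overlap of the groups (-0.15 ± 0.10 SE; limma adjusted p = 0.987). Around Cfhr2, 3 of 7 symbols had a row, with differences from -0.21 to 0.11.

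Genes whose log2 values over the 6 libraries were most like each gene were listed by Pearson r among 11004 genes averaging 2 FPKM or more. For C4b these were Peg10 (0.994), Plxnc1 (0.994), Adnp2 (0.988) and Sec24d (0.982), and 174 genes had an r over 0.9. For C4a they were Cdh4 (0.989), Plce1 (0.981), Mtmr9 (0.981) and Papss2 (0.977). For Cfhr2 they were Srp54a (0.990), Srp54b (0.989), Zdhhc15 (0.988) and Scn9a (0.979). For Serping1 they were Vstm2b (0.999), Ergic1 (0.975), Tjap1 (0.971) and Vmac (0.965). Genes with an r over 0.9 numbered 67 for C4a, 22 for Cfhr2 and 45 for Serping1. With 6 libraries, such likeness is a description of these libraries, in which vehicle 1 and vehicle 2 stand apart. With Cfhr2 the r was 0.711 for C4a and 0.479 for C4b, and with Serping1 it was 0.47 for C4a, 0.34 for C4b and 0.336 for Cfhr2.

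**Figure D5:**
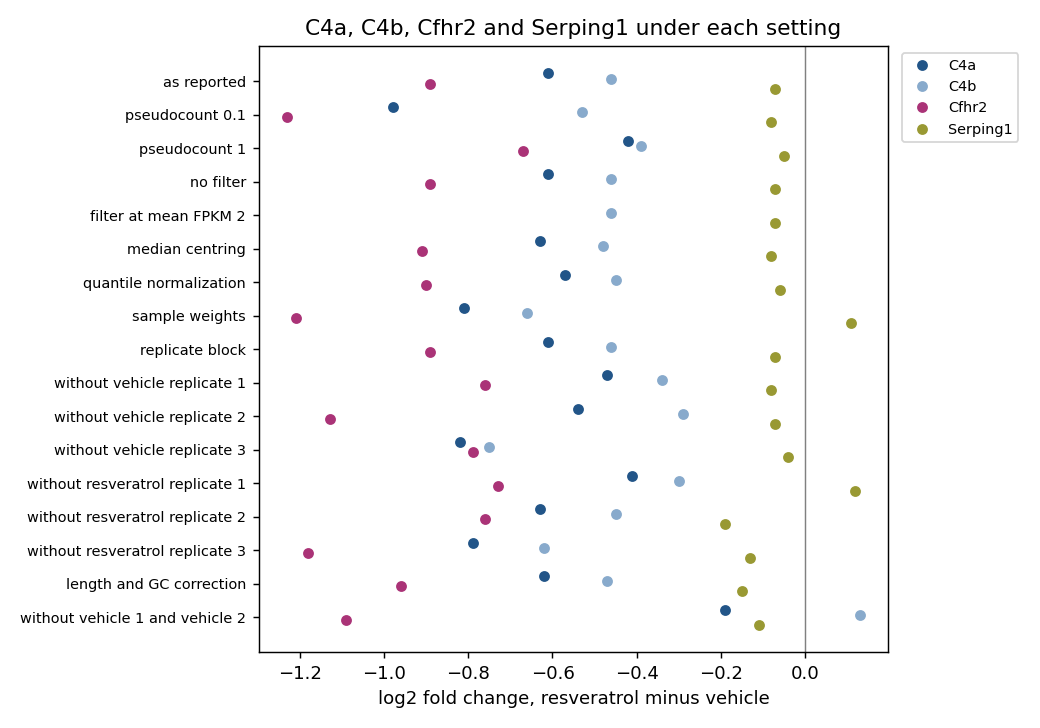
Log2 difference of resveratrol minus vehicle (x axis) of C4a, C4b, Cfhr2 and Serping1 (colours) under each processing setting or set of libraries (y axis). C4b lies at -0.46 as reported and at 0.13 without vehicle 1 and vehicle 2, where Cfhr2 lies at -1.09.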

How the data were processed

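Per the labels' protocols, total RNA libraries were stranded and depleted of ribosomal RNA. The submitters' processing notes name STAR, Cufflinks, Cuffdiff and GRCm38 without versions or roles, and no annotation is given in the sources used here. Per the file headers, the deposited values are FPKM for each library, log2 group values and fold changes, and the authors' p-value and q-value. The design text names 3 mice per group. Loci in the table were not used, and coordinates come from GENCODE M21 (GRCm38). A two-sided limma fit (limma 3.58.1 under R 4.3.3) with a mean-variance trend was run on log2(FPKM + 0.5) for the 13574 genes whose mean reached 0.5 FPKM, leaving out the genes of 2 failed values. Depth is unknown: in low genes with 1 transcript, 28.4% to 34.3% of values lay within 0.1 of a whole step at the best of 400 trial steps (20% by chance for 1 step), so no counting interval is given. The fit was tested on data simulated with independent noise for each gene and library. Such data hold no shift shared by many genes of a library. That test thus cannot speak to how vehicle 1 and vehicle 2 stand apart. The genes and lists were chosen with earlier results of these data known. Other genes were named from lists by role, as the 2 most abundant markers of a cell list, or as the 4 most like each gene. Alternatives were pseudocounts of 0.1 and 1, no minimum or one of 2 FPKM, median centring, quantile normalization, a block for the replicate number, sample weights, and leaving out each library. After seeing results, weights were switched to the gene-by-gene method because the default stopped early, and fits without a library were made to keep the genes of the full fit. A gene of the role lists is not reported here.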

Additional observations from a re-analysis of the deposited data

How the results depend on the processing

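C4a and Cfhr2 were lower in resveratrol under all 15 alternatives that gave a value, C4b under 15 of 16 and Serping1 under 14 of 16. These counts carry no support, since the alternatives reuse the same libraries and C4a, C4b and Cfhr2 were chosen for their fall. As each library was left out, the log2 difference ranged from -0.82 to -0.41 for C4a, -0.75 to -0.29 for C4b, -1.18 to -0.73 for Cfhr2 and -0.19 to 0.12 for Serping1, and the genes past the threshold from 1 to 7 (3 without vehicle 2, 7 without vehicle 3). Without vehicle 1 and vehicle 2 (chosen after seeing the data) C4a moved to -0.19, C4b reversed to 0.13, and 3 genes passed. Sample weights gave vehicle 1 and resveratrol 2 weights of 4.02 and 3.55 and vehicle 3 a weight of 0.266. With them 1390 genes passed (10.2%), 487 of them lower. Among these were the 3 genes chosen for their fall, from which nothing is read. Serping1 turned to 0.11, and 2 other complement genes passed, C8g (0.79) and Cd59a (-0.68). Vehicle 1, the library of largest weight, was the lowest for C8g (0.135 FPKM) and the highest for Cd59a (4.59 FPKM). The cause of the larger number of genes passing with weights was not tested. The median of the other complement genes, 0.04 as reported, ranged from -0.01 (without vehicle 3 or resveratrol 3) to 0.06 as each library was left out, and was -0.00 with the length and GC correction (added later), where 13 were lower; with the filter at 2 FPKM 4 were lower, since fewer genes were tested. That filter gave no value for C4a and Cfhr2, and C3 gave none at all. With the replicate number as a block 1 gene passed and the C4b difference was -0.46. The numbers were not taken to pair the mice. Deviations of same-numbered libraries from their group means correlated at 0.0383, 0.148 and 0.184. These values cannot decide on a pairing, since libraries of different numbers were not set beside them. FPKM without depth and 3 mice per group limit all values at these low levels.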

Other observations

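Reactive astrocytes are known to raise C4b and Serping1 in mice. Of 24 genes of that state, 18 had a row, 5 higher and 13 lower in resveratrol, and 0 passed in limma (1 at an unadjusted p under 0.05). Over all genes 43.9% were lower and 2.42% had an unadjusted limma p under 0.05. The log2 differences of the 18 ran from -0.26 to 0.62 with a median of -0.07. The groups did not overlap in 2 of the 18, both higher, where 4.28% of all genes were higher without overlap. The summed level of the 18 was 114 to 121 FPKM in vehicle and 105 to 130 FPKM in resveratrol. Gfap, the intermediate filament of astrocytes, had 30.9, 45.6 and 35.5 FPKM in vehicle 1, 2 and 3 and 28.7, 30.9 and 43.1 FPKM in resveratrol 1, 2 and 3 (-0.13 ± 0.18 SE on the log2 scale). In resveratrol Gfap and C4b had the same order, rising from resveratrol 1 to resveratrol 3. In the vehicle group both were highest in vehicle 2, while vehicle 1 was lowest for Gfap and vehicle 3 for C4b. The part of astrocyte reactivity in the C4b values was not tested. Of 12 interferon response genes, a response that raises Serping1, 9 had a row, 6 higher and 3 lower, with summed levels of 44.9 to 60.5 FPKM in vehicle and 54.2 to 61.7 FPKM in resveratrol.

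Markers of other cell types of the brain are given as summed levels. Their counts of higher and lower genes stand beside 43.9% lower over all genes. Oligodendrocyte markers summed to 1391 to 1479 FPKM in vehicle and 1184 to 1391 FPKM in resveratrol, with 5 of 6 lower. Endothelial markers summed to 86.6 to 115 FPKM and 77.9 to 102 FPKM, with 3 higher and 4 lower. Mural cell markers summed to 43.6 to 44.1 FPKM and 44 to 47.7 FPKM, with 3 higher and 3 lower. Those of meningeal fibroblasts summed to 27.4 to 33.3 FPKM and 25.7 to 31.4 FPKM, with 5 higher and 4 lower. Their log2 differences ran from -0.72 to 0.16, with 0 past the limma threshold. At an unadjusted p under 0.05 there were 2 of 9, against 2.42% of all genes. In 1 the groups did not overlap, lower in resveratrol, against 2% of all genes. Striatal markers summed to 828, 468 and 315 FPKM in vehicle 1, 2 and 3 and to 263 to 576 FPKM in resveratrol, with 9 of 9 lower, a median log2 difference of -0.37 and 0 past the limma threshold (0 at an unadjusted p under 0.05). Choroid plexus markers summed to 17.3 to 114 and 49.5 to 459 FPKM, with 7 of 7 higher, a median of 0.68 and 0 past that threshold. At an unadjusted p under 0.05 there was 1, against 2.42% of all genes. Most of the sum was Ttr, with 13.3 to 108 FPKM in vehicle and 43.2 to 441 FPKM in resveratrol, and 2 of the 7 were under 0.1 FPKM in a library. Neuronal markers summed to 2116 to 2341 and 2064 to 2498 FPKM, with 3 higher and 2 lower, and blood markers to 94.1 to 206 and 126 to 143 FPKM, with 1 higher and 2 lower.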
